A study of Mus musculus with 4 samples.

Results

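The genes described here are 9 that make, break down or export heme in mouse regulatory T (Treg) cells: Alas1, Alad, Uros, Urod, Cpox, Ppox, Fech, Hmox2 and Flvcr1. They were taken by name from a table of read counts for 47729 Ensembl genes, in which each had 1 row. The rule uses only the names and no measured value. The RNA came from sorted Treg cells of C57BL/6 mice, in 2 libraries labelled wild type (WT; Tfrc +/+ Foxp3 YFP-Cre/+) and 2 labelled TfR1-deficient (Tfrc fl/fl Foxp3 YFP-Cre/+). The labels name spleen as the source, while a figure legend of the study names spleens and lymph nodes. TfR1, the product of Tfrc, takes up iron bound to transferrin. By design, Cre made from the Foxp3 locus deletes the floxed Tfrc, and the comparison asks how the transcripts of Treg cells then differ. Both genotypes carried the YFP-Cre allele at the X-linked Foxp3 locus on 1 of the 2 X chromosomes, with no drug or other treatment given in the labels. X inactivation leaves such females with a mosaic of Cre-expressing and Cre-negative Treg cells, and the sort for YFP took the Cre-expressing cells. The labels give no age and do not say whether a library came from 1 animal or from a pool.

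Heme is an iron-containing ring that serves as the prosthetic group of cytochromes, catalases and hemoglobin. Its synthesis begins and ends in the mitochondrion, with the middle steps in the cytosol. Alas1 makes aminolevulinate and is rate-limiting outside the erythroid lineage, and Alad, Uros, Urod, Cpox and Ppox are among the enzymes that carry the intermediate to protoporphyrin. Fech then inserts ferrous iron into protoporphyrin, and the Fech protein itself holds an iron-sulfur cluster. Heme oxygenases, the inducible Hmox1 and the constitutive Hmox2, open the ring and release iron, and Flvcr1 exports heme from the cell.

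The libraries held between 10841939 and 17278448 counts, and levels are given as CPM, counts scaled to the library total with TMM factors. Tfrc (chromosome 16, 32608896 to 32632794, GRCm38.p6) had 50.8 and 54.1 CPM in WT, and 56.1 and 48.3 CPM in the pair of libraries labelled TfR1-deficient. Its gene-level count was therefore not lower in them and does not check the labels, on which every direction below rests. All 8 Treg markers looked for were counted, with a summed level of 6001 and 6170 CPM in WT and 5403 and 4656 CPM in TfR1-deficient, and Ctla4, an inhibitory receptor of Treg cells, was at 407 and 427 CPM in WT and 241 and 235 CPM in TfR1-deficient (adjusted p = 0.911 in edgeR). Pax5 of B cells and Cd8a were at 0.63 CPM or less, while Cd79b of B cells was at 24.1 to 38.5 CPM and Cd8b1 of CD8 T cells at 10.8 to 12.3 CPM. Markers of other cells were present too. The 15 macrophage markers summed to 1162 CPM in WT 1 and 3515 CPM in TfR1-deficient 2, against 95.2 CPM in WT 2 and 69.8 CPM in TfR1-deficient 1, and none was at 0 in all 4 libraries. Of the 11 erythroid markers listed, 8 were matched to a row by symbol, and Hbb-bs, Hbb-bt and Ahsp were not. The 8 summed to 77.6 and 189 CPM in WT and to 124 and 343 CPM in TfR1-deficient. Gata1 made up 58.0 and 79.2 CPM of these sums in WT and 78.8 and 60.7 CPM in TfR1-deficient. The library order of Gata1 differed from that of the globin gene Hba-a1 (9.90 and 62.1 CPM in WT, 23.2 and 163 CPM in TfR1-deficient). The 16 proliferation genes were all higher in WT 1 and TfR1-deficient 2 than in the other 2 libraries. In such bulk samples, fewer cells of a type and less RNA per cell cannot be told apart.

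Of the 9 heme genes, 8 differed by less than 0.25 on the log2 scale between the genotypes, and Fech differed by 0.77. All 9 passed the filter on low counts, and none had an adjusted p under 0.05 in edgeR's quasi-likelihood test, where 0% of the 12536 tested genes were called. At an unadjusted p under 0.05 the same test passed 1 of the 9, Fech, against 5.22% of all tested genes, and 1.88% of all genes in the higher direction. DESeq2 passed the same 1 of 9, against 5.04% of all genes, and a count of 1 in 9 is too small to be read against these shares. Both TfR1-deficient libraries lay above both WT libraries for 2 of the 9 (Fech and Hmox2; 16.0% of all tested genes) and below them for another 2 (Alad and Uros; 18.9%). The median log2 fold change over the 9 was -0.08, beside 0.01 over all tested genes, with 5 genes lower and 4 higher. The median size of the difference, regardless of sign, was 0.10 for the 9 and 0.21 for all tested genes. The tested genes include some with fewer reads, such as Abcb10 at 12 to 18, and were not matched to the 9 by level.

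**Figure D1:**
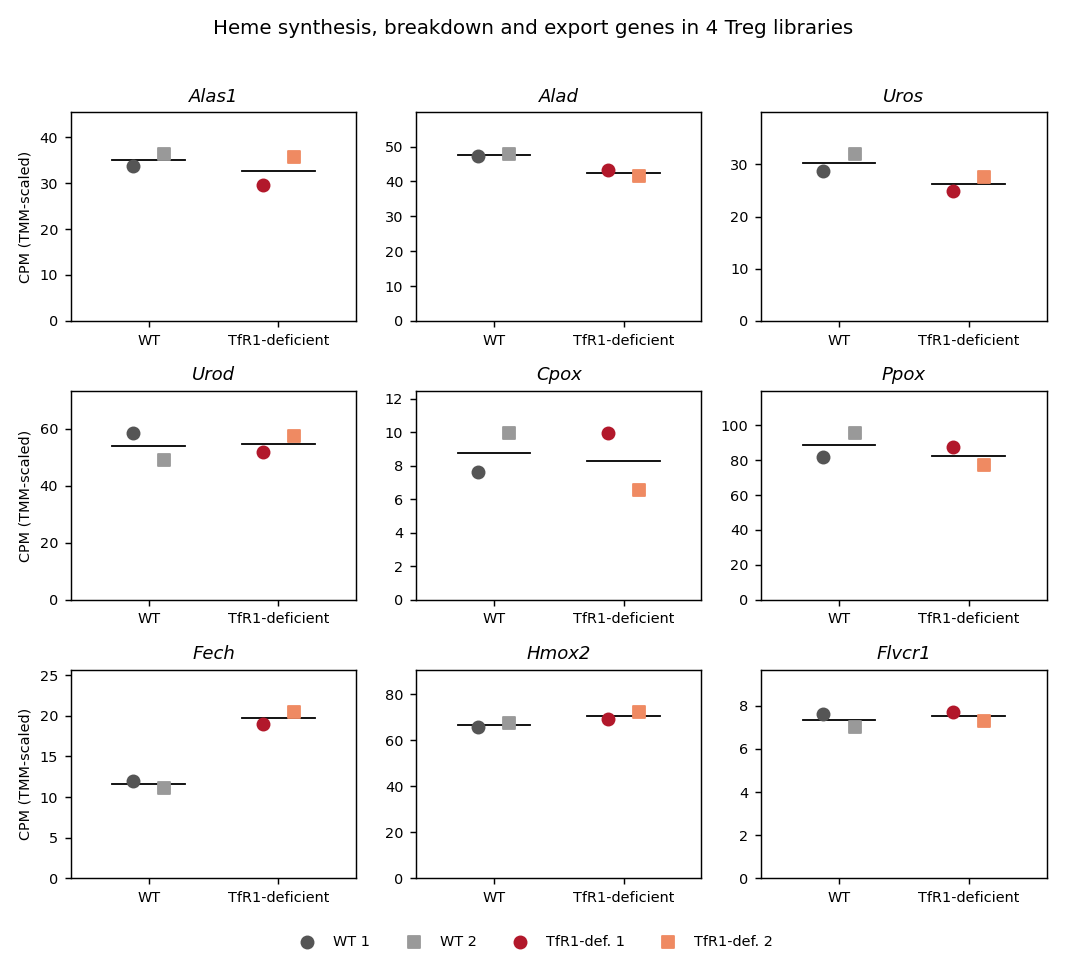
TMM-scaled CPM (linear axes from 0) of the 9 heme genes in each of the 4 libraries, with circles for replicate 1, squares for replicate 2 and a line at each group's mean. Fech sits at 11.2 to 12.03 CPM in WT and 19.0 to 20.5 CPM in TfR1-deficient, while the other 8 genes lie at similar heights in both genotypes.

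Alas1 (chromosome 9, 106233455 to 106247954, minus strand, GRCm38.p6), the rate-limiting first enzyme, was at 33.8 and 36.3 CPM in WT and 29.7 and 35.7 CPM in TfR1-deficient. The groups overlapped, because the second TfR1-deficient library lay between the WT values. On the log2 scale the difference was -0.10 (standard error 0.19, 95% interval -0.58 to 0.38, adjusted p = 0.977 in edgeR), which leaves room for a level between 0.668 and 1.30 times that of WT. Alas2, the X-linked paralog that serves hemoglobin synthesis in erythroid cells, was counted as well and behaved differently. It stood at 0.246 and 4.41 CPM in WT and at 1.27 and 12.5 CPM in TfR1-deficient, a span of 3 to 171 reads. This is the same order of libraries as for Hba-a1, which encodes alpha globin, at 9.90, 62.1, 23.2 and 163 CPM, and 4 of the 8 erythroid markers shared it. The part of these markers in the Alas2 counts was not tested. In GENCODE vM1, 114 of the 4310 exon bases of Alas1 also belong to 4930500F10Rik on the opposite strand.

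The stretches just upstream of the start sites of Alas1, Alad and Alas2 are shown to set the first 2 enzymes of the general pathway beside the erythroid form of the first. The sequences are those of RefSeq on GRCm38.p6, 5′ to 3′ on the strand of the gene, for chr9:106247955-106248069 (Alas1, minus), chr4:62520064-62520178 (Alad, minus) and chrX:150547302-150547416 (Alas2, plus). Capitals mark matches on either strand to the GC box of the factor SP1, which is GGGCGG, to the E-box CACGTG, to the NF-Y motif CCAAT, or to AGATAA, which GATA factors read.
Alas1: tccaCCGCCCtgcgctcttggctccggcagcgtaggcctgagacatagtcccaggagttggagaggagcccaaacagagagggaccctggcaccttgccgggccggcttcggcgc
Alad: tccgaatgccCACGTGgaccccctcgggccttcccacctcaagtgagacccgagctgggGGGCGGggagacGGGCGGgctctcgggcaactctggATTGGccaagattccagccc
Alas2: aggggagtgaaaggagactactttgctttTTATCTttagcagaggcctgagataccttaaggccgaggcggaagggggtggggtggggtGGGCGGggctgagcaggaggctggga
Each of the 3 stretches holds a GC box, and a GATA match (TTATCT, the reverse complement of AGATAA) stands in Alas2 and in neither of the others.

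Promoters of 300 bases (250 before and 50 after each start) were in the reference table for 8 of the 9 genes, with several starts for some, and for 30 of the 34 other heme genes. GGGCGG was found for 7 of the 8, against 35.7% of all 32851 promoters, with Cpox as the exception. CCAAT was found for 4 (Alad, Urod, Ppox and Flvcr1; 37.4% of all promoters), and CACGTG for 3 (Alad, Uros and Urod; 7.15%). ACGTG, the core of the hypoxia response element, lies inside CACGTG and was found for those 3 and for Cpox (19.6%). AGATAA was found for Cpox alone of the 8, after its start site (11.2%), TGACNNNGC, the core of the antioxidant response element, for Flvcr1 alone (12.4%), and TGCGCANGC, a site of NRF1, for none (4.16%). The counts are by gene, over any of its starts, while the shares are by promoter, so the 2 are not alike. Genes with several starts had more sequence searched than those with 1. The GC content of the 13 promoters of the 8 genes ran from 47.0 to 73.3%, beside a mean of 53.8% over all promoters. The matches describe these letters in these windows and are not sites of binding.

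Alad (chromosome 4, 62505984 to 62520063), which joins aminolevulinate into porphobilinogen, was at 47.1 and 47.8 CPM in WT and 43.2 and 41.5 CPM in TfR1-deficient. Both TfR1-deficient values were below both WT values (log2 fold change -0.16, standard error 0.15, adjusted p = 0.951 in edgeR).

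Uros (chromosome 7, 133686142 to 133710467), which closes the tetrapyrrole ring, was at 28.7 and 32.0 CPM in WT and 24.95 and 27.6 CPM in TfR1-deficient. The groups did not overlap, and the log2 fold change of -0.21 (standard error 0.19, 95% interval -0.70 to 0.28, adjusted p = 0.954 in edgeR) was the lowest of the 9. Urod (chromosome 4, 116989965 to 116994436), the decarboxylase that follows, was at 58.6 and 49.2 CPM in WT and 51.8 and 57.4 CPM in TfR1-deficient. Here WT 1 and TfR1-deficient 2, which were higher in macrophage markers and in proliferation genes alike, were above the other 2. That order was shared by 22.9% of all tested genes. The Urod groups overlapped (log2 fold change 0.02, standard error 0.16, adjusted p = 0.997 in edgeR).

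Cpox (chromosome 16, 58670208 to 58680391), which oxidizes coproporphyrinogen, was low, at 7.61 and 9.94 CPM in WT and 9.97 and 6.57 CPM in TfR1-deficient, or 90 to 173 reads. It was lower in WT 1 and TfR1-deficient 2 than in the other 2 libraries, the opposite order to Urod. The log2 fold change was -0.08, and its 95% interval from -0.99 to 0.82 was the widest of the 9. Ppox (chromosome 1, 171276991 to 171281193), the last step before iron is inserted, had the highest CPM of the 9, at 82.1 and 95.7 CPM in WT and 87.6 and 77.1 CPM in TfR1-deficient. The groups overlapped (log2 fold change -0.11, standard error 0.16, adjusted p = 0.962 in edgeR). In the GENCODE vM1 annotation 791 of the 4515 exon bases of Ppox also belong to B4galt3 on the opposite strand, and since the strand setting of the counting is not given in the sources used here, the reads of the 2 genes may not be fully separated.

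Fech (chromosome 18, 64456542 to 64489098) was the exception. It was counted at 12.03 and 11.2 CPM in WT, from 147 and 119 reads, and at 19.0 and 20.5 CPM in TfR1-deficient, from 330 and 281 reads. The replicates of each genotype lay close together, 0.11 apart on the log2 scale in both, and the gap between the genotypes was several times wider. The level in TfR1-deficient was 1.70 times that of WT (log2 fold change 0.77, standard error 0.23, 95% interval 0.18 to 1.36). The unadjusted p was 0.0203 in edgeR's quasi-likelihood test and the adjusted p was 0.911, so the difference did not pass the threshold over all genes, and Fech stood at rank 233 by p among the 12536 genes. DESeq2 gave a log2 fold change of 0.78, with an unadjusted p of 0.0110 and an adjusted p of 0.514. A design of 2 libraries against 2 allows no exact permutation p below 0.333.

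Set pair by pair, Fech was higher in TfR1-deficient in all 4 pairs of libraries. This holds for every gene whose TfR1-deficient libraries both lie above both WT libraries (16.0% of all tested genes). TfR1-deficient 2 over WT 1, the 2 libraries rich in macrophage transcripts, gave 0.77 on the log2 scale, and TfR1-deficient 1 over WT 2, the 2 poor in them, gave 0.77. The libraries of a pair were not equal in these transcripts. The macrophage markers summed to 3515 and 1162 CPM in the rich pair and to 69.8 and 95.2 CPM in the poor pair, TfR1-deficient first. TfR1-deficient 1 over WT 1 gave 0.66, and TfR1-deficient 2 over WT 2 gave 0.88. Fech is also made in quantity by erythroid cells, and 2 of the 8 erythroid markers were higher in both TfR1-deficient libraries, as Fech was. Epb42, of the red cell membrane skeleton, was at 0.164 and 0.281 CPM in WT and 0.980 and 1.24 CPM in TfR1-deficient (adjusted p = 0.911 in edgeR). These were 2 and 3 reads in WT and 17 and 17 in TfR1-deficient. Klf1, an erythroid transcription factor, was at 0.0819 and 0.375 CPM in WT and 0.634 and 1.68 CPM in TfR1-deficient. It had 1 and 4 reads in WT and 11 and 23 in TfR1-deficient, and did not pass the filter on low counts. The other 6 erythroid markers, the alpha globin genes Hba-a1 and Hba-a2 among them, had overlapping groups. The part of macrophage or erythroid transcripts in the Fech difference was not tested. With any 1 library left out, the edgeR log2 fold change of Fech was between 0.71 and 0.85 and its unadjusted p between 0.0531 and 0.0890, so the unadjusted call was lost in each case. In those fits the lone library of a group was taken to vary like the other group. No other gene shared exon bases with Fech in GENCODE vM1.

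**Figure D2:**
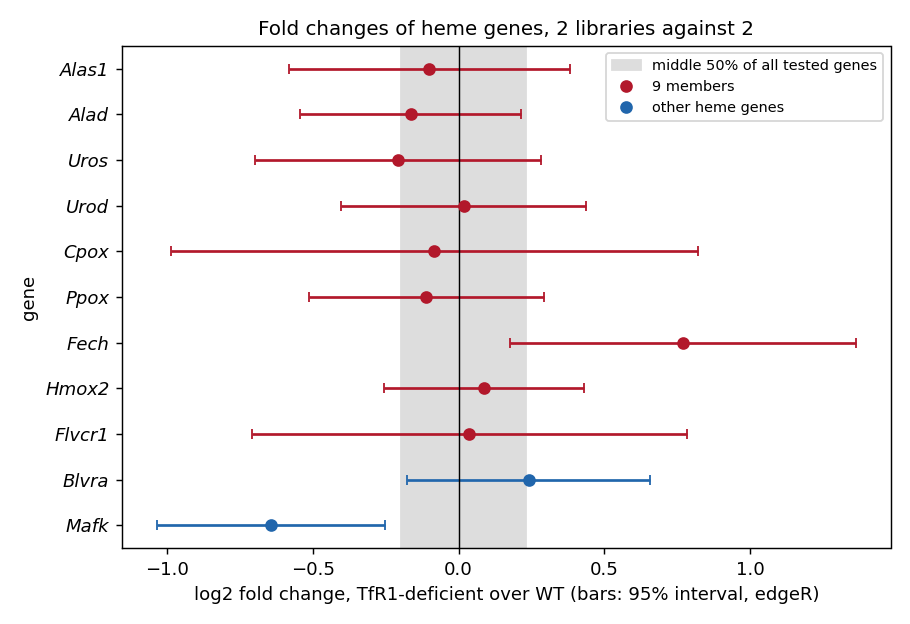
Log2 fold change of TfR1-deficient over WT (horizontal axis) for the 9 heme genes (red) and 2 other heme genes (blue), with 95% intervals from edgeR, 2 libraries against 2; the grey band runs from the lower to the upper quartile of all tested genes, -0.20 to 0.23. The interval of Fech, 0.18 to 1.36, lies above 0, and those of the other 8 genes include 0.

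Reads on Fech can also be set against reads on its own pathway, which needs no scaling between libraries. Among the reads on the 7 synthesis enzymes of the list, Fech took 4.46% in WT 1 (95% Wilson interval 3.80 to 5.21%, 147 of 3299 reads) and 3.95% in WT 2 (3.32 to 4.71%, 119 of 3009). The share was 7.14% in TfR1-deficient 1 (6.44 to 7.92%, 330 of 4620) and 7.70% in TfR1-deficient 2 (6.88 to 8.61%, 281 of 3648). The WT and TfR1-deficient intervals did not overlap, although they cover counting error only and not the spread between animals. The group means were 4.21% ± 0.35 (SD, n = 2) and 7.42% ± 0.40 (SD, n = 2). This ratio was chosen after the values of Fech had been seen and was not tested.

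The chain as a whole was at a similar level in all libraries. The 7 synthesis enzymes summed to 270 and 282 CPM in WT and to 266 CPM in both TfR1-deficient libraries. Without Fech the mean sum was 264 CPM in WT and 247 CPM in TfR1-deficient. Of the reads on the 7, Ppox took 32.2% ± 2.49 in WT and 30.9% ± 2.80 in TfR1-deficient, Alad 17.2% ± 0.36 and 15.9% ± 0.47, and Urod 19.6% ± 3.01 and 20.5% ± 1.48 (SD, n = 2 each).

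**Figure D3:**
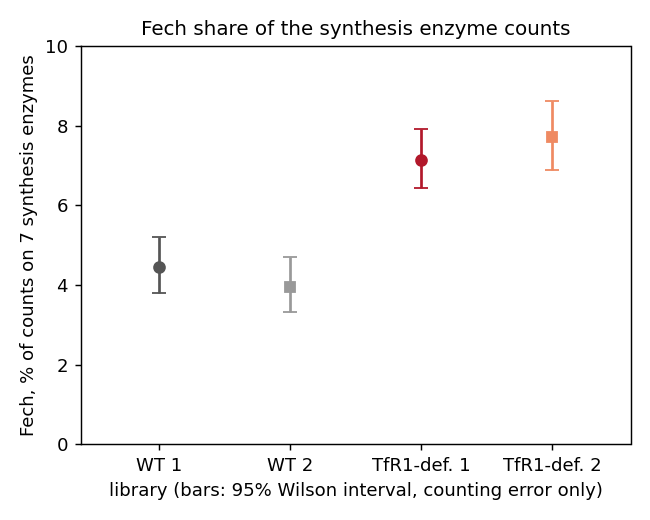
Share of Fech among the reads on the 7 synthesis enzymes (percent, axis from 0) in each library, with 95% Wilson intervals that cover counting error only. The WT libraries are at 4.46% and 3.95%, and the TfR1-deficient libraries at 7.14% and 7.70%.

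Hmox2 (chromosome 16, 4726361 to 4766742), the constitutive heme oxygenase, was at 65.9 and 67.3 CPM in WT and 69.0 and 72.4 CPM in TfR1-deficient. Both TfR1-deficient libraries were above both WT libraries, but by only 0.09 on the log2 scale (standard error 0.13, adjusted p = 0.966 in edgeR), and its 95% interval allowed 0.838 to 1.35 times the WT level. Of its 2217 exon bases in GENCODE vM1, 892 also belong to 5730403B10Rik on the opposite strand, which was itself counted at 820 to 1734 reads. Hmox2 and Cpox lie on chromosome 16, as does Tfrc, at 27.8 and 26.0 Mb from it.

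Flvcr1 (chromosome 1, 191005832 to 191026190), the heme exporter of the plasma membrane, was at 7.61 and 7.03 CPM in WT and 7.72 and 7.30 CPM in TfR1-deficient. The values of the 2 genotypes interleaved, and the log2 fold change was 0.04 (standard error 0.29, 95% interval -0.71 to 0.78). At 75 to 134 reads the interval spans 0.612 to 1.72 times the WT level, and a difference within it was not detectable. Flvcr2, a related transporter, had 2 and 3 reads in WT and 13 and 8 reads in TfR1-deficient and did not pass the filter on low counts.

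For a comparison between genes, counts were divided by exon length (RPKM, with the union of exons in GENCODE vM1). Hmox2 had the highest mean over the 4 libraries, 31.0 RPKM ± 1.27 (SD, n = 4), followed by Alad at 24.0, Urod at 20.9 and Ppox at 19.0 RPKM. Uros at 7.92 and Alas1 at 7.86 RPKM came next, then Fech at 5.40, Cpox at 2.67 and Flvcr1 at 1.81 RPKM. Hmox2, Ppox and Alas1 share exon bases with opposite-strand genes (892 of 2217, 791 of 4515 and 114 of 4310). Since the strand setting is not given, their levels and ranks may be shifted. The range over the libraries separated Hmox2 from Alad, Ppox from Uros, Fech from Cpox and Cpox from Flvcr1. It did not separate Alad from Urod, Urod from Ppox, Uros from Alas1 or Alas1 from Fech. Alas1, the rate-limiting enzyme, was thus below 4 of the other 8 genes by a margin larger than the spread of the libraries. Fech was at 3.996 RPKM in WT and 6.81 RPKM in TfR1-deficient, and its highest library, at 7.07 RPKM, reached the lowest of Alas1, at 6.89 RPKM.

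**Figure D4:**
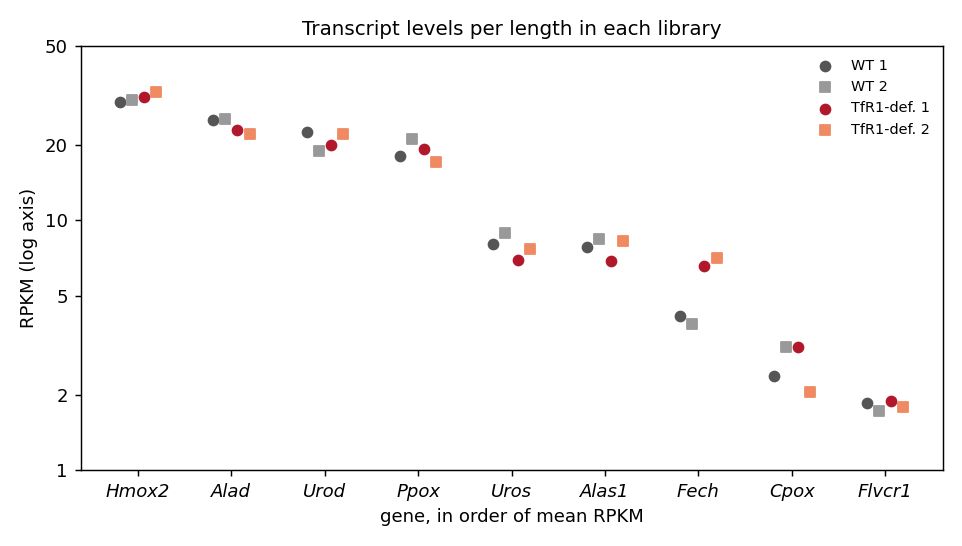
RPKM (log axis) of the 9 heme genes in each library, ordered by the mean over the 4 libraries from Hmox2 at 31.0 to Flvcr1 at 1.81. Fech has the widest spread, with its TfR1-deficient points above its WT points, followed by Cpox, which runs from 2.06 to 3.13 RPKM.

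The library profile of 3 genes, those with the widest range of log2 CPM over the libraries, was compared with that of every tested gene by the root mean square difference after centring on the mean over the 4 libraries. For Fech the nearest were 3 identifiers without a symbol in the reference tables, among them ENSMUSG00000105852 (0.02) and ENSMUSG00000105936 (0.03), and 30 genes lay within 0.1. For Cpox the nearest were Cdc73, Senp7 and Itgav (0.02 each), with 283 genes within 0.1, and for Uros Amz2, Cdk5 and Cwc15 (at most 0.01), with 647. With 4 libraries, many genes share a profile of this kind.

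The rest of the heme pathway was read from a list of 34 genes, all with a row in the table and 31 of them tested. None of the 31 had an adjusted p under 0.05 in edgeR, and 1, Mafk, had an unadjusted p under 0.05, against 5.22% of all tested genes. Of the 31, 16 were higher and 15 lower in TfR1-deficient, with a median log2 fold change of 0.01. Both TfR1-deficient libraries were above both WT libraries for 3 of the 31 (Blvra, Slc25a37 and Pgrmc2; 16.0% of all tested genes) and below them for 5 (Abcg2, Slc25a40, Tspo, Nr1d1 and Mafk; 18.9%), shares that do not exceed those of all genes.

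Mafk encodes a small Maf protein that pairs with the heme sensor Bach1 or with Nfe2l2 (NRF2) on antioxidant response elements. It was at 51.2 and 54.6 CPM in WT and 34.3 and 33.4 CPM in TfR1-deficient. The groups were well apart, by -0.64 on the log2 scale (standard error 0.15, 95% interval -1.03 to -0.25). The unadjusted p was 0.00798 in edgeR, and the adjusted p was 0.911 in edgeR and 0.303 in DESeq2. Mafg, another small Maf, had a log2 fold change of -0.17, Bach1 of -0.13, Bach2 of 0.22 and Nfe2l2 of -0.10, each with overlapping groups. Eif2ak1, the heme-regulated kinase that restrains translation when heme is scarce, had -0.12. The heme-binding nuclear receptors gave -0.95 for Nr1d1 (standard error 0.41, adjusted p = 0.911 in edgeR) and 0.01 for Nr1d2. At 12.2 and 7.405 CPM in WT and 4.09 and 6.06 CPM in TfR1-deficient, the Nr1d1 groups did not overlap, though the WT libraries differed widely.

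Among the other genes of heme breakdown, Hmox1 and Blvrb had overlapping groups and were higher in WT 1 and TfR1-deficient 2 than in both others. Hmox1, the inducible oxygenase that is abundant in macrophages clearing red cells, was at 38.4 and 2.81 CPM in WT and 1.10 and 74.0 CPM in TfR1-deficient. It was high in the 2 libraries with high macrophage markers, such as the receptor Csf1r at 124, 1.97, 4.96 and 371 CPM. Blvrb, a reductase of biliverdin, had 9.99 and 5.16 CPM in WT and 7.78 and 17.4 CPM in TfR1-deficient, with the same 2 libraries above the others. Blvra, the main biliverdin reductase, did not follow this order, at 71.4 and 88.2 CPM in WT and 97.5 and 91.0 CPM in TfR1-deficient (log2 fold change 0.24, standard error 0.16, adjusted p = 0.938 in edgeR). The heme-binding protein Hebp1 (4.83 and 0.0937 CPM in WT, 0.634 and 23.2 CPM in TfR1-deficient) and Slc48a1, the transporter that returns heme from the lysosome (50.8 and 23.9 CPM, 33.1 and 51.0 CPM), were again highest in WT 1 and TfR1-deficient 2. In all, 10 of the 31 tested genes were higher in these 2 libraries than in both others, against 22.9% of all tested genes, and 9 were lower, against 25.5%. Of the 9 heme genes of the main list, 1 was higher (Urod) and 2 were lower (Cpox and Ppox) in them, while all 15 macrophage markers were higher. The part of macrophage transcripts and of proliferation in these values was not tested.

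**Figure D5:**
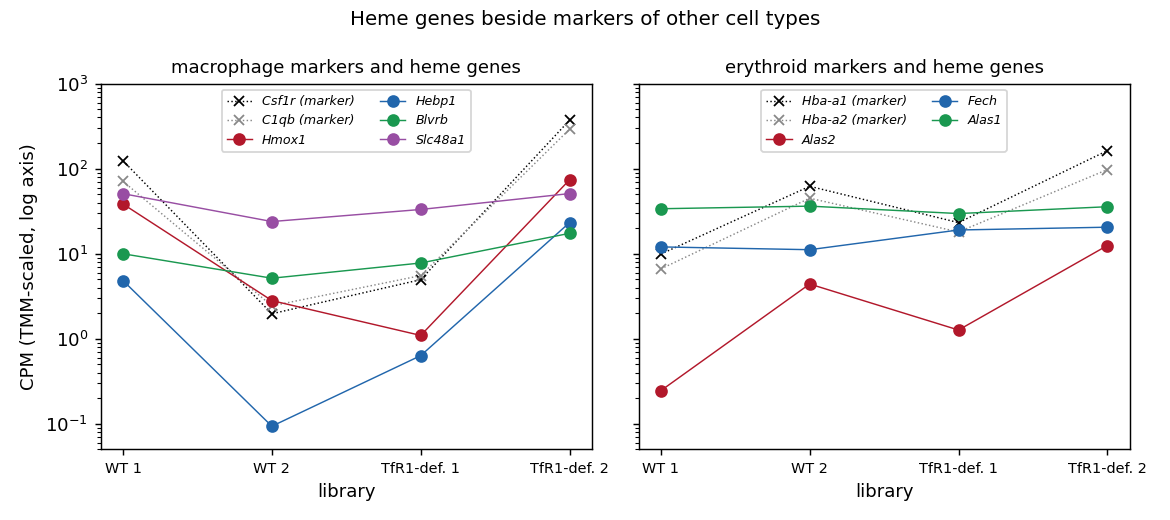
TMM-scaled CPM (log axis) of heme genes (circles) and of macrophage or erythroid markers (crosses, dotted) in each library, with lines joining the points of one gene only to guide the eye. Hmox1 and Hebp1 are highest where Csf1r and C1qb are, and Alas2 is ordered like Hba-a1 and Hba-a2, while Alas1 stays at 29.7 to 36.3 CPM and Fech is higher in both TfR1-deficient libraries.

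Among the carriers of heme and its precursors, 11 of the 13 listed were tested, with 5 higher and 6 lower. Slc25a40, a mitochondrial carrier, was at 23.1 and 18.5 CPM in WT and 14.4 and 14.0 CPM in TfR1-deficient, without overlap (log2 fold change -0.55, standard error 0.24, adjusted p = 0.911 in edgeR), while its homolog Slc25a39 had 0.23 with overlapping groups. Slc25a37 (mitoferrin-1), which brings iron into mitochondria, had 0.28, and Slc25a28 (mitoferrin-2) had -0.12 with a standard error of 0.65. Slc25a38, the glycine carrier that feeds the first step, had -0.03, Abcb10 -0.24, Tmem14c -0.30, Fam210b 0.05, Slc46a1 0.12 and the heme exporter Abcg2 -0.27. Abcb6 had at most 4 reads in a library and was not tested.

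Of the genes for heme a, heme c and heme handling, 8 of 9 were tested. Cox10 and Cox15, which turn heme into heme a for cytochrome oxidase, had log2 fold changes of 0.25 and -0.32, and Hccs, which attaches heme to cytochrome c, had 0.05. Pgrmc1, a heme-binding partner of Fech, had -0.42 with overlapping groups, and its paralog Pgrmc2, at 3.27 and 2.81 CPM in WT and 4.21 and 4.45 CPM in TfR1-deficient, had 0.51 without overlap (standard error 0.36, adjusted p = 0.949 in edgeR). Clpx, the mitochondrial unfoldase that acts on the first enzyme of the pathway, had 0.15. Tspo, an outer-membrane protein that binds porphyrins, was the most highly counted of the list, at 181 and 158 CPM in WT and 135 and 152 CPM in TfR1-deficient (log2 fold change -0.24, adjusted p = 0.934 in edgeR). Hebp2 had 0 reads in all 4 libraries, which allows up to 0.277 CPM in the shallowest of them.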

How the data were processed

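Sequencing of RNA from sorted Treg cells gave 4 libraries, 2 for each genotype, whose groups come from the sample titles. The authors deposited raw whole-number read counts for each Ensembl gene and library. The methods name mm9 as the genome, while the submitters' processing notes list mm10, Trim Galore 0.6.7, STAR 2.7.9a and featureCounts. The sources used here give neither the strand setting nor the annotation release, nor how reads with several positions were treated. Symbols were matched for 32799 of the 47729 identifiers, and 22368 genes had a count. Coordinates and promoters are from RefSeq on GRCm38.p6, and exon lengths from GENCODE vM1.

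After filterByExpr 12536 genes were left. They were TMM-scaled and compared by genotype alone in edgeR 4.0.16 (quasi-likelihood test; R 4.3.3), at a threshold of 0.05 after Benjamini-Hochberg adjustment over all tested genes. A standard error is the log2 fold change over the root of the F statistic, and log2 CPM has a prior count of 2. Figures and intervals were made in Python 3.11.15 with matplotlib 3.10.9 and scipy 1.17.1. DESeq2 1.42.0, other scalings and count filters, a minimum change, a replicate block and the omission of each library were the alternatives. In simulated counts for 12206 genes edgeR recovered 8 of 92 genes changed by 1 on the log2 scale and 50 of 95 changed by 2, and called 12 of 12019 unchanged ones.

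Totals ranged from 10841939 to 17278448 counts, and the common biological coefficient of variation was 0.323. Replicates differed beyond counting noise (chi-square per degree of freedom 20.7 in WT and 32.1 in TfR1-deficient), so each counted as a sample. The labels call them replicates and the study calls them biological replicates, and p-values measure the spread between these samples. The genes named are the 9, the other heme genes of the list, Tfrc, markers that touch a result, and the 3 nearest profiles for the 3 members with the widest range. Some genes of the lists are not reported here. The members and lists were chosen with earlier results of these data known.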

Additional observations from a re-analysis of the deposited data

How the results depend on the processing

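Across the genes tested, the 0 calls of edgeR at an adjusted p under 0.05 became 44 with DESeq2 and 262 with every gene of at least 1 count, and the 655 genes at an unadjusted p under 0.05 became 1320 with the latter. With the replicate block, the unadjusted calls fell to 211 over all genes and 0 of the 9 heme genes, where the unadjusted p of Fech was 0.0884 (edgeR). Same-numbered libraries deviated in opposite directions (correlation -0.61). With 2 libraries per genotype, this cannot decide whether the numbers pair the samples, because a difference between single libraries could give it too. The crossed pairing, chosen after seeing the data, gave 439 adjusted and 2243 unadjusted calls. Among the adjusted calls were 2 of the other heme genes (Hebp1 and Mafk). With every gene of at least 1 count, Hebp1 had an adjusted p of 0.000347 in edgeR; over its other alternatives, the crossed pairing apart, its adjusted p was 0.909 or more. With 1 library left out, unadjusted calls ranged from 392 (without WT 1) to 617 over all genes, with 0 of the 9 heme genes each time. The median log2 fold change of the 9 was -0.048 with total library sizes and -0.13 to 0.028 with 1 library left out (0.028 without TfR1-deficient 1).

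Fech, Alad, Uros and Hmox2 kept their direction under every alternative, and Fech was between 0.71 and 0.85. Log2 fold changes near 0 changed sign with 1 library left out: Alas1 (-0.24 to 0.059), Urod (-0.11 to 0.17), Cpox (-0.38 to 0.18), Ppox (-0.20 to 0.00013) and Flvcr1 (-0.023 to 0.11). So did Alas2 (-0.86 to 4.75), Hmox1 (-4.23 to 3.76), Hebp1 (-1.96 to 6.89), Slc46a1 (-0.66 to 2.05), Slc48a1 (-0.28 to 0.84), Slc25a28 (-0.70 to 0.83), Slc25a38 (-0.29 to 0.30), Slc25a39 (-0.11 to 0.53), Tmem14c (-0.67 to 0.023), Fam210b (-0.18 to 0.27), Cox15 (-0.93 to 0.11), Hccs (-0.18 to 0.27), Bach1 (-0.28 to 0.045), Eif2ak1 (-0.30 to 0.11), Nr1d2 (-0.16 to 0.23) and Nfe2l2 (-0.18 to 0.013). Hmox1 was at -0.13 with the replicate block, and Slc25a38 at 0.0044 with total library sizes. The causes were not tested. In fits with 3 libraries the lone library is taken to vary like the other group.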
